A study of Mus musculus with 2 samples.

Results

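The genes described here encode the extracellular and membrane part of the Wnt pathway in the mouse thoracic aorta: the Wnt ligands, the R-spondins, their receptors and co-receptors, the secreted antagonists, and the feedback target Axin2. Members were taken by symbol from the feature list (every Wnt, Fzd, Sfrp, Dkk and Rspo gene, with Frzb, Wif1, Lrp5, Lrp6, Axin2, Lgr4, Lgr5, Lgr6, Ror1 and Ror2), which gave 51 of 32287 features. The values are counts of UMIs, the barcodes that mark single captured RNA molecules, from single-cell RNA-seq of 2 thoracic aortas of 12-week-old C57BL/6J mice. Both mice were GFPiSMC animals, called WT, in which the Myh11 promoter drives a tamoxifen-inducible Cre that switches a membrane reporter in smooth muscle cells (SMCs), and both received tamoxifen from 3 weeks of age, at 1 mg/d over 5 days. There was no second genotype and no untreated group, so all comparisons lie between cell types of the same aortas (n = 2), and viable single cells were sorted without the reporter. Each library came from an individual aorta.

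The deposited libraries held 8947 and 6263 cells with 47009780 and 30919996 UMIs, and 6539 and 4614 cells remained after filters and removal of called doublets. The libraries shared 18 cell barcodes. Clusters were named from markers as SMC-like (3427 cells), fibroblast-like (2541), myeloid-like (1592), endothelial-like (1509), lymphocyte-like (927), mesothelial-like (431) and erythroid-like (38), written below without the suffix, while 688 cells stayed unnamed. The members were left out of the genes used for clustering, so the grouping of cells did not use their values. The defining markers were where the names require: Myh11, the smooth muscle myosin heavy chain, stood at 4608 and 4269 CPM in SMCs against 72.9 and 44.9 in fibroblasts, and Dcn, the matrix proteoglycan decorin, at 16130 and 15240 CPM in fibroblasts against 242.9 and 199.9 in SMCs. CPM is UMIs per 1000000 UMIs of all cells of that type in 1 aorta. Pairs of values below give aorta 1 first and aorta 2 second.

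Wnt proteins are lipid-modified ligands that bind Frizzled receptors. With the co-receptors Lrp5 or Lrp6 they stabilize beta-catenin, and with other partners, Ror1 and Ror2 among them, they act through branches that do not need it. R-spondins bind the receptors Lgr4, Lgr5 and Lgr6 and protect Frizzled from removal at the cell surface, which raises the response to Wnt. Secreted Frizzled-related proteins (Sfrp1, Sfrp2, Sfrp4, Sfrp5 and Frzb) and Wif1 bind Wnts outside the cell, and most Dickkopf proteins (Dkk) block the co-receptors. In the vessel wall the pathway is known for its part in the growth and maturation of endothelium and in the state of smooth muscle.

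Of the 51 members, 40 had 20 or more UMIs over the analysed cells and are described with their levels. Wnt9b, with 33 UMIs, was the lowest of these, and Fzd10, with 12, lay just below the limit. Wnt1 (11 UMIs), Dkk1 (6), Sfrp5 (4), Wnt3 (2), Wnt10a (1) and Wnt3a (1) also fell below it, and Dkk4, Rspo4, Wnt7a and Wnt8a had no UMI. Thus 13 of 19 Wnt ligands, 3 of 4 R-spondins, 9 of 10 Frizzled receptors, 5 of 6 secreted Wnt-binding antagonists and 2 of 4 Dickkopf genes were described, together with the 3 Lgr receptors, Lrp5, Lrp6, Ror1, Ror2 and Axin2. The edgeR test included 38 members, and Lgr5 and Fzd9 did not pass its filter on low counts.

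The members were unevenly distributed over the wall. By mean CPM, 14 of the 40 were highest in mesothelial cells, 12 in fibroblasts, 7 in endothelial cells, 6 in SMCs and 1 in lymphocytes. The same count was not made over all genes, so it does not set the members apart from other genes. CPM also lacks the scaling between libraries that the tests used. In 5 of the 40 members (Fzd1, Fzd5, Wnt11, Axin2 and Ror2) the aortas of the highest and the next type overlapped, so their order is not fixed. Lack of overlap does not by itself fix the order of the other members. For Fzd2 and Lgr4, which did not overlap, the edgeR test given below called no difference between SMCs and fibroblasts, their highest types. Lgr5 and Fzd9 did not overlap either and were not tested. Overlaps were not counted over all genes. The heat map of levels shows the blocks of high values in each type. Summed over all 51 members, the level was 3905 and 4030 CPM in fibroblasts, 2282 and 2370 in endothelial cells, 1990 and 1901 in mesothelial cells, 1337 and 1439 in SMCs, 240.5 and 222.4 in myeloid cells and 116 and 92.3 in lymphocytes. The secreted Wnt-binding antagonists made up most of this sum in fibroblasts (2487 and 2607 CPM) and endothelial cells (1679 and 1776 CPM), whereas in mesothelial cells the R-spondins (667.9 and 623.2 CPM) and Wnt ligands (496.5 and 523 CPM) did.

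**Figure D1:**
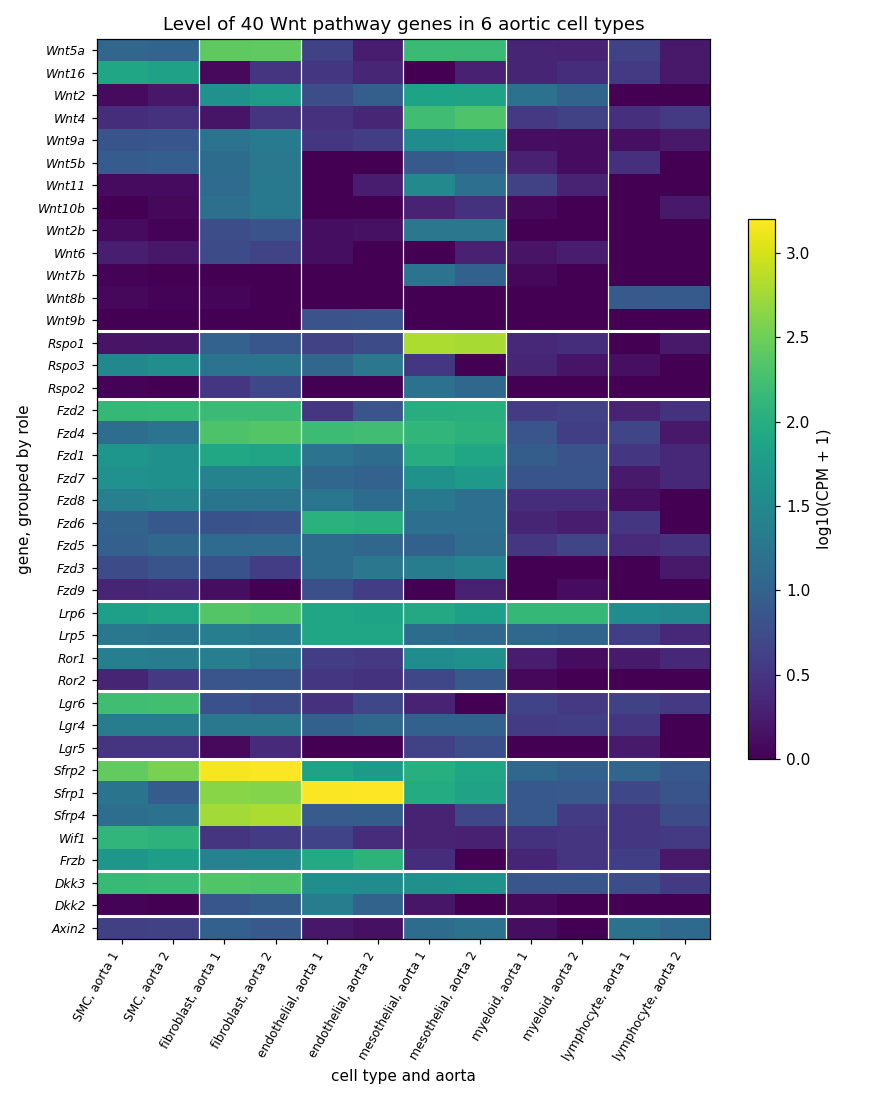
Heat map of the 40 described genes (rows, grouped by role and separated by white lines) in 6 cell types, with a column for each aorta; color is log10(CPM + 1). Sfrp1 is brightest in endothelial cells, Sfrp2 in fibroblasts, Rspo1 and Wnt4 in mesothelial cells, and Lgr6, Wif1 and Wnt16 stand out in SMCs alone.

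A member was called in a comparison when the edgeR quasi-likelihood test gave an adjusted p under 0.05 and the log2 fold change exceeded 1 in size. Between SMCs and fibroblasts, the comparison of the media with the adventitia, 5 of the 38 tested members were higher in SMCs (13.2%, against 10.3% of all 13875 genes tested) and 17 were lower (44.7%, against 16.4% of all genes). Between endothelial cells and fibroblasts, 7 were higher in endothelial cells (18.4%, against 11.5% of all genes) and 21 lower (55.3%, against 14.7% of all genes). Mesothelial cells had 7 members higher (18.4%, against 10.5% of all genes) and 15 lower (39.5%, against 14.1% of all genes) than fibroblasts, and endothelial cells had 9 higher (23.7%, against 15.7% of all genes) and 16 lower (42.1%, against 14.2% of all genes) than SMCs. The median log2 fold change of the members was -0.63 for SMCs over fibroblasts (-0.10 over all genes), -1.63 for endothelial cells over fibroblasts (-0.05 over all genes) and -0.91 for mesothelial cells over fibroblasts (-0.15 over all genes). For endothelial cells over SMCs it was -1.25 as fitted, but -0.19 when genes with no UMI in 1 of the types were set to the limit that 3 UMIs allow. Over all 7 types, the F test called 38 of 38 members, as it did 93.0% of all genes. With the markers and the genes that shaped the clusters set aside, the share of genes called higher and lower was 10.3% and 14.2% in SMCs over fibroblasts, 9.34% and 14.1% in endothelial cells over fibroblasts, 9.27% and 13.3% in mesothelial cells over fibroblasts, and 13.1% and 14.4% in endothelial cells over SMCs. Fibroblasts are the shared reference of 3 of these comparisons, so their counts are not independent.

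**Figure D2:**
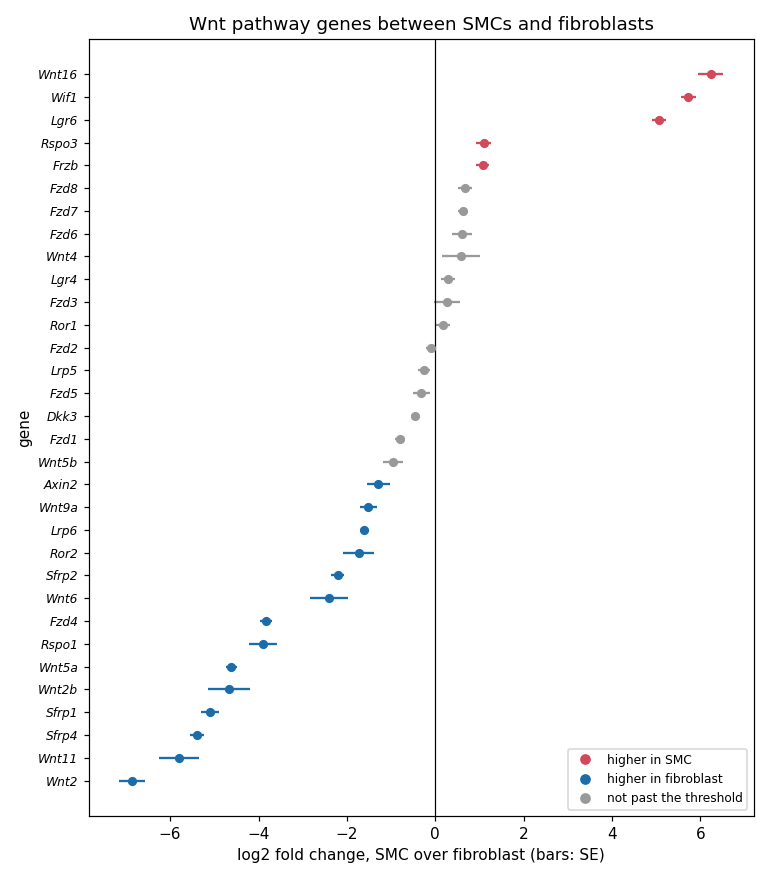
Log2 fold change of 32 members between SMCs and fibroblasts (points; bars are the standard error; n = 2 aortas), leaving out members with 3 or fewer UMIs in either type. Wnt16, Wif1 and Lgr6 lie above 5 on the log2 scale, and Wnt2, Wnt11, Sfrp4 and Sfrp1 lie below -5.

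Among the ligands, Wnt5a, which mostly signals independently of beta-catenin, was the one with the most UMIs (4820) and was a fibroblast gene. Its level was 254 and 266 CPM in fibroblasts and 153 and 153 in mesothelial cells, against 10.5 and 10.2 in SMCs, 3.15 and 0.791 in endothelial cells and at most 3.27 in myeloid cells and lymphocytes. Fibroblasts and mesothelial cells stood well apart from the other types, without overlap. The log2 fold change was -4.62 ± 0.13 (SE; edgeR adjusted p = 1.06e-19) for SMCs over fibroblasts and -7.10 ± 0.22 (edgeR adjusted p = 6.43e-19) for endothelial cells over fibroblasts. Mesothelial cells, at -0.996 ± 0.12, lay at the fold limit and were not called. The level in SMCs was 0.0413 and 0.0384 of that in fibroblasts, within the range of the 6 fibroblast markers (up to 0.0420 and 0.0631). It was uneven over the SMC clusters, as given below.

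Wnt16 was the ligand of SMCs. It stood at 77.9 and 67.7 CPM in SMCs and between 0 and 2.55 CPM in each aorta in fibroblasts, endothelial, mesothelial and myeloid cells and lymphocytes. The difference from fibroblasts was 6.23 ± 0.29 on the log2 scale (edgeR adjusted p = 1.28e-15), and rested on 15 UMIs in fibroblasts, so that it was 8.42 in aorta 1 alone and 5.03 in aorta 2 alone, and 4.47 with doublets kept. After each cell was thinned to 1000 UMIs, 6.45% (127 of 1969) and 5.28% (77 of 1458) of SMCs held a Wnt16 UMI, compared with 0.170% and 0% of lymphocytes. Before thinning the shares of SMCs were 33.9% and 27.7%, at median depths of 8499 and 8094 UMIs per cell against 3944 and 3812 in lymphocytes.

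Wnt4 and Wnt7b were mesothelial. Wnt4 reached 165 and 208 CPM in mesothelial cells and at most 3.20 CPM in the other large types, a log2 fold change of 7.05 ± 0.27 over fibroblasts (edgeR adjusted p = 1.46e-16). It was 7.99 in aorta 1 alone, 6.41 in aorta 2 alone and 5.95 without the small Cxcl13 cluster. Most of the Wnt4 came from a small cluster, taken up below with the mesothelial clusters. Wnt7b stood at 15.5 and 8.93 CPM in mesothelial cells with no UMI in fibroblasts, where 3 UMIs over the group would give 0.192 CPM, so the mesothelial level was at least 63.6-fold higher.

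Wnt2, Wnt2b, Wnt9a and Wnt11 were shared by mesothelial cells and fibroblasts. Wnt2 was 71.3 and 69.5 CPM in mesothelial cells and 41.2 and 57.2 in fibroblasts, but only 0.239 and 0.595 in SMCs. Its log2 fold change in SMCs over fibroblasts was -6.86 ± 0.30 (edgeR adjusted p = 9.15e-16). Wnt2b, at 17.7 and 17.9 CPM, was higher in mesothelial cells than in fibroblasts (4.73 and 5.68 CPM; log2 fold change 1.55 ± 0.34; edgeR adjusted p = 0.00086). Wnt9a was 35.4 and 39.7 CPM in mesothelial cells and 15.6 and 20.1 in fibroblasts, a difference of 0.84 ± 0.21 that did not reach the fold limit. Wnt11 overlapped between the same types (31.0 and 13.9 CPM against 12.4 and 18.9).

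Fibroblasts had the highest level of Wnt10b, Wnt5b and Wnt6. Wnt10b stood at 14.4 and 18.6 CPM with 2 UMIs in all SMCs and none in endothelial cells, at least 31.4-fold higher than in the latter. Wnt5b was 12.7 and 18.3 CPM in fibroblasts, 7.46 and 8.08 in SMCs and 7.19 and 7.94 in mesothelial cells, and endothelial cells had no UMI of it, so fibroblasts were at least 29.5-fold above them. The difference between SMCs and fibroblasts (-0.95 ± 0.23) was not called in edgeR, but it was in DESeq2 (-1.19; DESeq2 adjusted p = 0.00028). Wnt6 was low, at 4.52 and 3.47 CPM in fibroblasts. Sfrp2, Wnt5a, Rspo1, Rspo3, Fzd6, Wnt5b, Axin2, Wnt6, Lgr5 and Wnt7b overlap annotated genes on the opposite strand, whose reads cannot be told apart from theirs if the counting did not use strand, which was not stated.

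The rarest described ligands lay almost wholly in 1 type each. Wnt9b, with 5.67 and 5.93 CPM, had UMIs in endothelial cells and in no other of the 6 large types, which puts endothelial cells at least 30.2-fold above fibroblasts and at least 55.1-fold above SMCs. edgeR called both differences, but DESeq2 did not (adjusted p = 0.28 and 0.18). Wnt8b was at 6.91 and 7.005 CPM in lymphocytes, where it lay in the cluster led by Rag1, the recombinase of immature lymphocytes (44.97 and 43.3 CPM), and in the dividing cells (10.4 and 9.65 CPM).

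The R-spondins divided between the outer surface and the media. Rspo1 had the highest level of all members in mesothelial cells, at 651 and 612 CPM against 9.14 and 6.16 in fibroblasts and 0.477 and 0.510 in SMCs, a log2 fold change over fibroblasts of 6.10 ± 0.15 (edgeR adjusted p = 4.13e-20). After thinning, 48.9% (134 of 274) and 47.1% (74 of 157) of mesothelial cells held an Rspo1 UMI, 89.1% and 89.8% before it, and no lymphocyte did after thinning. Rspo2 was also mesothelial, with 14.9 and 10.9 CPM against 2.26 and 3.95 in fibroblasts (log2 fold change 1.92 ± 0.44; edgeR adjusted p = 0.0014).

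Rspo3, by contrast, was highest in SMCs, at 30.7 and 35.7 CPM, then in fibroblasts at 15.7 and 15.9 and in endothelial cells at 10.4 and 17.4. Endothelial cells and fibroblasts overlapped. The difference between SMCs and fibroblasts was 1.09 ± 0.17 (edgeR adjusted p = 5.95e-06). That call was lost in DESeq2 (0.86) and with doublets kept (0.18, adjusted p = 0.46).

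Of the R-spondin receptors, Lgr6 stood at 163 and 169 CPM in SMCs, 5.38 and 4.58 in fibroblasts, 1.89 and 3.95 in endothelial cells and at most 3.37 in the other large types. SMCs were thus separated from every other type by more than the spread between aortas, with a log2 fold change over fibroblasts of 5.06 ± 0.15 (edgeR adjusted p = 6.96e-19), or 3.90 with doublets kept. Thinned SMCs held an Lgr6 UMI in 15.2% (299 of 1969) and 16.3% (237 of 1458), against 0.340% and 0% of lymphocytes. Before thinning the SMC shares were 65.0% and 65.1%. Lgr4 was spread more evenly, with 21.6 and 21.7 CPM in SMCs, 18.1 and 18.2 in fibroblasts and 8.82 to 11.1 in endothelial and mesothelial cells, and no difference between SMCs and fibroblasts was called (log2 fold change 0.28 ± 0.16; edgeR adjusted p = 0.14). Lgr5 had 86 UMIs in all, at 3.32 and 4.96 CPM in mesothelial cells and 2.09 and 2.13 in SMCs.

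Lgr6, Wif1 and Wnt16 shared this restriction to SMCs, so the sequences before their starts are given side by side. They are the 250 bases upstream of the RefSeq transcription start on GRCm38.p6, read 5′ to 3′ on the strand of the gene: Lgr6 chr1:135105277-135105526 on the minus strand, Wif1 chr10:121033754-121034003 on the plus strand and Wnt16 chr6:22287977-22288226 on the plus strand. Capitals mark a match to the sequence of a GC box (GGGCGG) or a TATA box (TATAAA), each on either strand.
Lgr6: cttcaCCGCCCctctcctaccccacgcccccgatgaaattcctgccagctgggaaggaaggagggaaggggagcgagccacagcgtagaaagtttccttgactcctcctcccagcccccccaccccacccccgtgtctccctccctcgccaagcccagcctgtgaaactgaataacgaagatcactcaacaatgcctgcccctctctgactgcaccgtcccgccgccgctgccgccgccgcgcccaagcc
Wif1: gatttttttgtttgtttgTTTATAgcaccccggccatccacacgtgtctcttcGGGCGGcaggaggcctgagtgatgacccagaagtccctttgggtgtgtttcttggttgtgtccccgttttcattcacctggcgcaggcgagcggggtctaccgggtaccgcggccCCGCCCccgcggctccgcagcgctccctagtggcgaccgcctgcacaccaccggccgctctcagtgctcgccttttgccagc
Wnt16: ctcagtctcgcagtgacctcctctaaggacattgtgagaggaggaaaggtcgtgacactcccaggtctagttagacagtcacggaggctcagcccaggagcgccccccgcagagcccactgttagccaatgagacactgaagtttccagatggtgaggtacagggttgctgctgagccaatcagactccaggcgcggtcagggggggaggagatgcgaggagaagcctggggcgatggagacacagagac
Wif1 held 2 GC box matches and 1 TATA box match, Lgr6 held 1 GC box match and Wnt16 neither. The TATA box match of Wif1 lay on the opposite strand near the upstream end of the window, far from the start. A GC box match occurs in 32.7% of the 32851 promoters of the RefSeq table in this window and a TATA box match in 12.4%. None of the 3 windows held the core of the site for the Tcf and Lef factors of the Wnt pathway (CTTTGA, 13.8% of all promoters) or a CArG box, the site of serum response factor in contractile genes (1.47% of all promoters), which says only that these letters are absent from the window. GC content was 65.2% in Lgr6, 62.8% in Wif1 and 59.2% in Wnt16, against a median of 52.4%. Of the 40 described members, 26 had an entry in the table, and 5 of them (Frzb, Fzd1, Ror1, Wnt11 and Wnt5b) held CTTTGA and 1 (Lgr4) a CArG box. A GC box match was held by 19 of the 26, Lgr6 and Wif1 among them, and a TATA box match by 4.

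The sum of the Frizzled receptors was 501 and 506 CPM in fibroblasts, 428 and 410 in mesothelial cells, 342 and 340 in endothelial cells and 285 and 286 in SMCs, against 27.2 and 24.0 in myeloid cells and 11.6 and 9.55 in lymphocytes. Fzd2 was nearly level in fibroblasts (151 and 151 CPM) and SMCs (136 and 140 CPM), with 97.3 and 102 in mesothelial cells and 2.21 and 5.93 in endothelial cells. No difference between SMCs and fibroblasts was called (log2 fold change -0.10 ± 0.10; edgeR adjusted p = 0.39), whereas that of endothelial cells over SMCs was -5.34 ± 0.20 (edgeR adjusted p = 1.27e-17), or -6.15 in aorta 1 alone and -4.72 in aorta 2 alone. It was -3.67 with doublets kept and -3.27 among cells with 5000 to 25000 UMIs, and was called in both.

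Fzd4, the receptor for norrin in endothelium, had the opposite gap in the media. It was 202 and 219 CPM in fibroblasts, 155 and 164 in endothelial cells, 126 and 112 in mesothelial cells and 13.4 and 15.7 in SMCs. SMCs were the lowest of these 4 types, while myeloid cells (5.93 and 2.93 CPM) and lymphocytes (3.64 and 0.637 CPM) were lower still. The log2 fold change was -3.84 ± 0.13 for SMCs over fibroblasts (edgeR adjusted p = 3.87e-18) and 3.27 ± 0.14 for endothelial cells over SMCs (edgeR adjusted p = 2.18e-16). Fzd6 was endothelial: 111 and 105 CPM, with 13.8 and 13.9 in mesothelial cells and at most 9.43 elsewhere, a log2 fold change over fibroblasts of 4.13 ± 0.19 (edgeR adjusted p = 2.08e-15) that held in all 4 endothelial clusters (65.9 to 149 CPM).

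Fzd1, Fzd7 and Fzd3 were highest in mesothelial cells. Fzd1 was 98.4 and 76.4 CPM there and overlapped with fibroblasts (81.4 and 72.5 CPM), while SMCs had 47.5 and 39.3. Fzd7 was 42.6 and 51.6 CPM in mesothelial cells, 40.5 and 39.1 in SMCs and 26.3 and 26.2 in fibroblasts. Neither was called between SMCs and fibroblasts in edgeR, with differences of -0.80 ± 0.12 and 0.63 ± 0.12. DESeq2 did call Fzd1 lower in SMCs (-1.03; DESeq2 adjusted p = 2.6e-08). Fzd3 was 21.01 and 25.8 CPM in mesothelial cells and 12.6 and 17.4 in endothelial cells against 5.38 and 2.84 in fibroblasts, and both differences were called (2.19 ± 0.34 and 1.62 ± 0.32). The endothelial call was lost among cells with at least 5000 UMIs (1.04, adjusted p = 0.11). Fzd8 (23.9 and 27.4 CPM in SMCs) and Fzd5 (12.2 and 12.2 in fibroblasts) were called in none of the 4 comparisons, and Fzd9 had 62 UMIs in all.

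The co-receptors were distributed in opposite ways. Lrp6 was 224 and 195 CPM in fibroblasts and 134 and 134 in myeloid cells, against 63.1 and 72.9 in SMCs and 76.9 and 70.8 in endothelial cells. Within the myeloid cells it was confined largely to the clusters led by F13a1 (227 and 235 CPM) and Cd209f (251 and 225 CPM), which also held Mrc1 and Cd163, genes of resident macrophages, among their leading genes, whereas the other 5 myeloid clusters stood at 51.7 CPM or less. Lrp5 was endothelial, with 76.3 and 76.7 CPM against 22.6 and 19.9 in fibroblasts (log2 fold change 1.68 ± 0.14; edgeR adjusted p = 2.38e-10) and 18.1 and 16.6 in SMCs. For Lrp6 the difference ran the other way (-1.67 ± 0.12; edgeR adjusted p = 2.07e-11).

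Of the Ror receptor kinases, Ror1 was 34.8 and 39.7 CPM in mesothelial cells, 23.1 and 20.8 in SMCs and 22.3 and 17.2 in fibroblasts, with 2.84 and 2.37 in endothelial cells (log2 fold change to fibroblasts -3.07 ± 0.30; edgeR adjusted p = 5.50e-09). Ror2, a receptor for Wnt5a, was 5.91 and 6.16 CPM in fibroblasts and 1.13 and 2.55 in SMCs (log2 fold change -1.74 ± 0.35; edgeR adjusted p = 0.00019). Ror1 overlaps another annotated gene, Gm12701, on its own strand, as Wnt2b does Gm43846, so their counts could be split or lost there.

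The secreted antagonists Sfrp2, Sfrp1 and Sfrp4 had the most UMIs of all members. Of the 5 described antagonists, Sfrp2 and Sfrp4 were highest in fibroblasts, Sfrp1 and Frzb in endothelial cells and Wif1 in SMCs. Sfrp1 was 1510 and 1596 CPM in endothelial cells and 433 and 407 in fibroblasts, 91.8 and 69.5 in mesothelial cells, 15.9 and 7.49 in SMCs and at most 6.93 in myeloid cells and lymphocytes. The endothelial level exceeded that of fibroblasts by 1.72 ± 0.16 on the log2 scale (edgeR adjusted p = 2.19e-09) and that of SMCs by 6.81 ± 0.21 (edgeR adjusted p = 5.94e-19; 7.56 in aorta 2 alone). In fibroblasts Sfrp1 reached 0.287 and 0.255 of the endothelial level, while the 7 endothelial markers reached at most 0.00939 and 0.0102. Thinned cells with an Sfrp1 UMI made up 55.9% (438 of 783) and 56.3% (409 of 726) of endothelial cells, 23.0% and 21.9% of fibroblasts and 0.170% and 0% of lymphocytes. Without thinning these shares were 70.4% and 70.0%, 43.2% and 40.8%, and 1.36% and 2.65%.

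Sfrp2 was the member with the most UMIs (32811). It stood at 1450 and 1518 CPM in fibroblasts and 271 and 361 in SMCs, followed by 100.1 and 77.4 in mesothelial and 68.4 and 52.6 in endothelial cells. The log2 fold change of SMCs over fibroblasts was -2.21 ± 0.14 (edgeR adjusted p = 7.43e-13), yet the SMC level, 0.187 and 0.238 of that in fibroblasts, exceeded the highest ratio of the fibroblast markers (0.0420 and 0.0631). In endothelial cells the ratio of Sfrp2 (0.0472 and 0.0346) lay within the range of those markers (up to 0.116 and 0.101). After thinning, 35.8% and 37.0% of fibroblasts, 14.7% and 19.6% of SMCs and 0.850% and 0.590% of lymphocytes held an Sfrp2 UMI.

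Sfrp4 was more restricted, with 576 and 653 CPM in fibroblasts and 13.4 and 15.2 in SMCs, 7.25 and 7.91 in endothelial cells and 1.11 and 3.97 in mesothelial cells. The difference between SMCs and fibroblasts was -5.40 ± 0.16 (edgeR adjusted p = 2.08e-19), and the SMC level lay within the range of the fibroblast markers. The SMC level of Sfrp4 was also uneven over the SMC clusters, as given below. Frzb, known as secreted Frizzled-related protein 3, was 89.8 and 117 CPM in endothelial cells, 48.8 and 59.2 in SMCs and 25.3 and 27.0 in fibroblasts, with 3 UMIs in all mesothelial cells. These 3 types did not overlap. Endothelial cells were above fibroblasts by 1.82 ± 0.16 (edgeR adjusted p = 2.96e-10), and SMCs by 1.07 ± 0.14 (edgeR adjusted p = 6.65e-07), a call lost in DESeq2 (0.84) and with doublets kept (0.84).

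Wif1 completed the set in the media. Its level was 126 and 116 CPM in SMCs and at most 3.47 CPM in fibroblasts, endothelial, mesothelial and myeloid cells and lymphocytes. The log2 fold change over fibroblasts was 5.72 ± 0.17 (edgeR adjusted p = 2.92e-19), or 4.54 with doublets kept. Thinned SMCs held a Wif1 UMI in 9.80% (193 of 1969) and 9.88% (144 of 1458), against 0.340% and 0% of lymphocytes. In these 5 other types the levels of Wif1 and Lgr6 relative to SMCs lay within the range of the 6 SMC markers in both aortas, and those of Wnt16 did so except in myeloid cells of aorta 2 and lymphocytes of aorta 1.

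**Figure D3:**
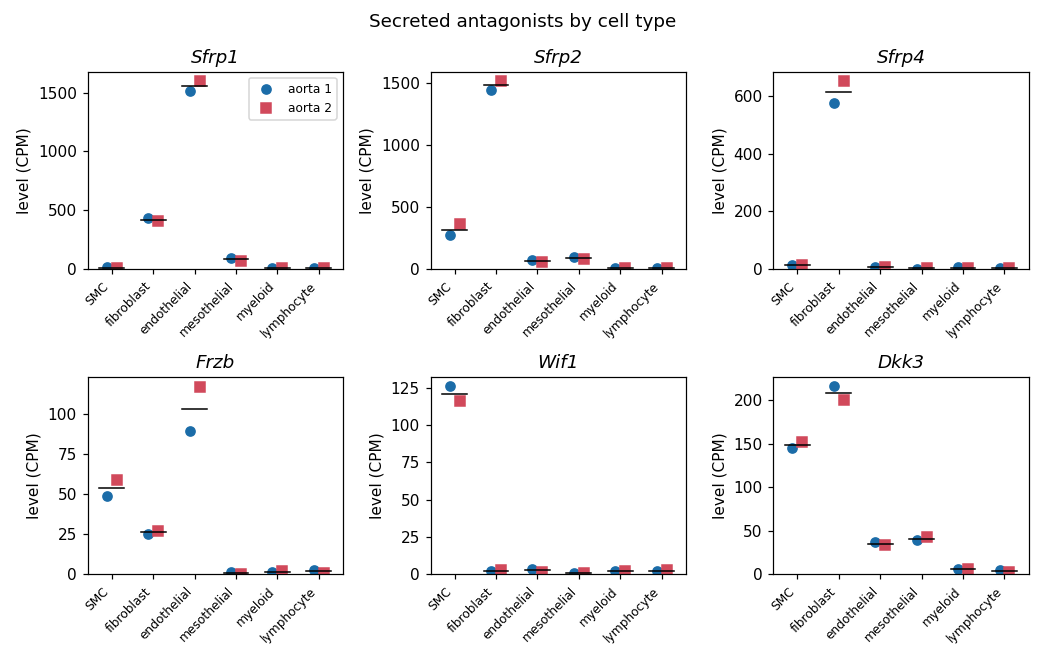
Level (CPM, linear axis from 0, scaled separately for each gene) of the 5 described secreted Wnt-binding antagonists and Dkk3 in 6 cell types; circles are aorta 1, squares aorta 2, and lines the mean. Sfrp1 peaks in endothelial cells at 1510 and 1596 CPM, Sfrp2 and Sfrp4 in fibroblasts, and Wif1 in SMCs at 126 and 116 CPM, with the aortas close together.

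Of the Dickkopf genes, Dkk3, a divergent member of the family, was broad: 216 and 200 CPM in fibroblasts, 145 and 152 in SMCs, 39.2 and 42.7 in mesothelial cells and 36.5 and 33.6 in endothelial cells. The difference between SMCs and fibroblasts was small (-0.46 ± 0.10; edgeR adjusted p = 0.00026) and under the fold limit. Dkk2 was 21.4 and 9.49 CPM in endothelial cells and 6.24 and 7.90 in fibroblasts, with 1 UMI in all SMCs. The endothelial excess over fibroblasts (1.01 ± 0.33; edgeR adjusted p = 0.015) came mainly from aorta 1, being 1.61 in aorta 1 alone and 0.11 in aorta 2 alone, and it was not called with the aorta as a block (0.99) or in DESeq2 (adjusted p = 0.14).

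Axin2, a direct target of beta-catenin that feeds back on the pathway, was low throughout. Its level was 12.7 and 14.9 CPM in mesothelial cells and 14.9 and 11.5 in lymphocytes, which overlapped, followed by 8.82 and 6.79 in fibroblasts, 3.04 and 3.32 in SMCs and 0.630 and 0.395 in endothelial cells. The log2 fold change to fibroblasts was -1.29 ± 0.26 in SMCs (edgeR adjusted p = 0.00014), and endothelial cells, called lower too (edgeR adjusted p = 1.16e-06), held 3 UMIs in all. Among lymphocytes, it was highest in the small cluster led by Cxcr6 (63.3 and 35.1 CPM), and the B cell cluster led by Igkc had no UMI.

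Fibroblasts were not uniform in these genes. Their 5 clusters are called by leading genes: Comp and C7 (944 cells), Dio2 and Mmp3 (838), Pla1a and Dact2 (466), Tcf21 and Epyc (193), and Mab21l2 and Aox3 (100). The Pla1a cluster carried the fixed markers of the Pi16 set, with Pi16 at 10180 CPM and Dpp4 at 357 CPM, and Fmod was highest in the Dio2 cluster (1047 CPM). Levels of clusters are given with no test, since the clusters were made from the same cells, although without the members.

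The antagonists were distributed in turn over these clusters. Sfrp1 was 1691 and 2144 CPM in the Tcf21 cluster and 699 and 615 in the Comp cluster, but 99.0 to 129 in the Pla1a and Dio2 clusters. Sfrp2 was 1973 and 2649 CPM in the Dio2 cluster and 1872 and 1770 in the Comp cluster, and 261 and 343 in the Pla1a cluster. Sfrp4 was near 1000 CPM in the Comp and Pla1a clusters (999.8 and 1050; 1018 and 813) and 176 and 189 in the Dio2 cluster. Frzb lay almost wholly in the Dio2 cluster, with 64.5 and 87.2 CPM there and at most 7.76 in the other clusters. The exact Poisson 95% intervals of these levels, which cover counting error only, are drawn in the plot of fibroblast clusters.

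The ligands followed other lines. Wnt5a was highest in the Comp cluster (396 and 439 CPM) and lowest in the Pla1a (106 and 75.1) and Mab21l2 clusters (35.9 and 108). Wnt2, Wnt10b and Wnt11 were highest in the Pla1a cluster, at 151 and 134, 66.3 and 51.2, and 36.1 and 36.4 CPM. In the Dio2 cluster the same genes stood at 3.17 and 2.21, 0.288 and 0, and 1.44 and 1.10 CPM. Lrp5 (3.94 and 5.12 CPM) and Ror1 (4.60 and 7.40 CPM) were lowest in the Pla1a cluster. Wnt5b was highest in the Mab21l2 cluster (65.8 and 96.2 CPM), which had 79 and 21 cells.

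**Figure D4:**
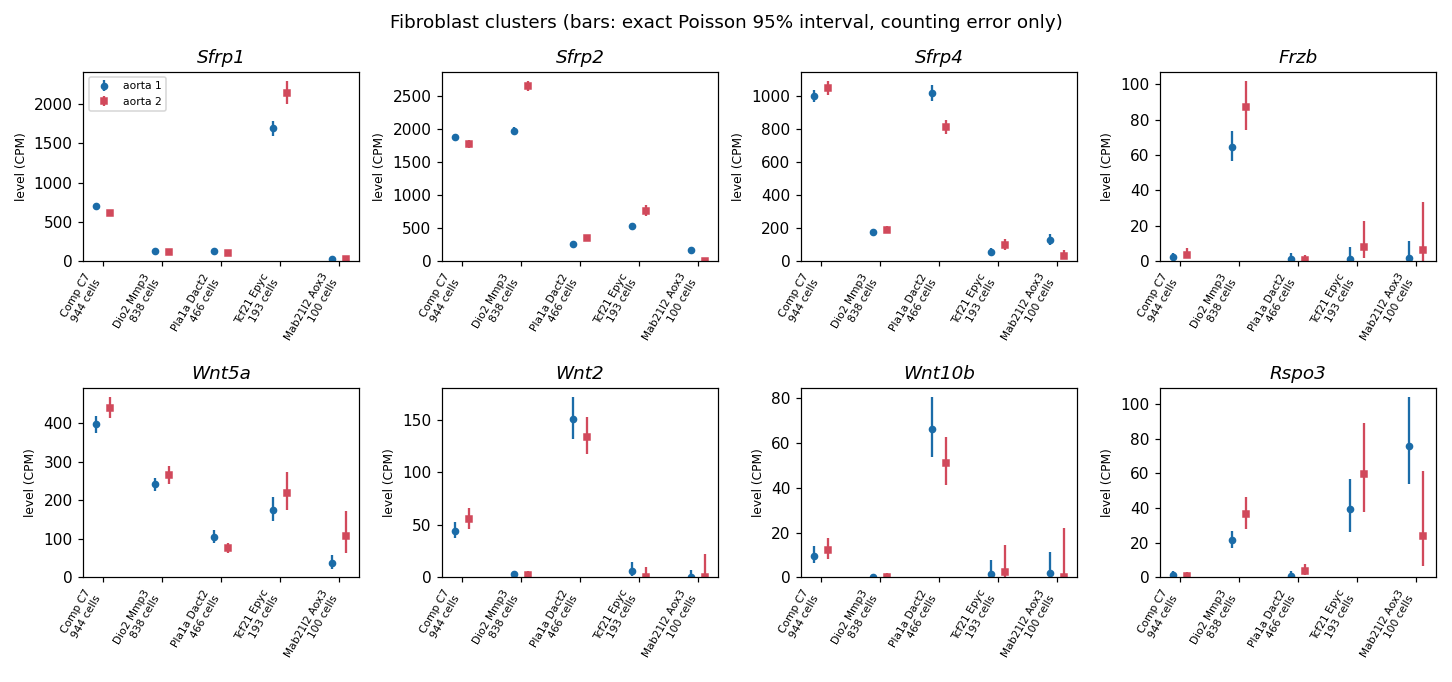
Level (CPM, linear axis from 0) of 8 members in the 5 fibroblast clusters, named by leading genes with their cell number; circles are aorta 1, squares aorta 2, and bars exact Poisson 95% intervals. Sfrp1 is highest in the Tcf21 cluster, Sfrp2 and Frzb in the Dio2 cluster, and Wnt2 and Wnt10b in the Pla1a cluster.

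SMCs likewise fell into 4 clusters, of which 3 are described, led by Mylk4 and Postn (2173 cells), Lrrtm3 and Rgs5 (941), and Pln and Pappa2 (75). Wnt16 was 108 and 98.6 CPM in the Mylk4 cluster and 5.75 and 9.48 in the Lrrtm3 cluster. Frzb ran the other way, with 10.2 and 9.70 CPM in the Mylk4 cluster and 166 and 187 in the Lrrtm3 cluster, and Sfrp2 did so too (135 and 140 against 601.5 and 880.5 CPM). Lgr6 was present in both (131 and 142; 288 and 250 CPM), as was Wif1 (139 and 135; 118 and 98.6 CPM). Wnt5b (25.4 and 22.8 CPM) and Lgr5 (8.62 and 6.32) were also highest in the Lrrtm3 cluster. Wnt5a stood at 24.8 and 19.3 CPM in the Lrrtm3 cluster and 5.30 and 4.65 in the Mylk4 cluster. Sfrp4 stood at 37.1 and 39.8 CPM in the Lrrtm3 cluster and 3.33 and 3.75 in the Mylk4 cluster.

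Rspo3 stood at 57.5 and 33.8 CPM in the Lrrtm3 cluster and 11.6 and 16.4 in the Mylk4 cluster. In the Pln cluster Wif1, Wnt16 and Rspo3 had no UMI, while Lgr6 stood at 75.3 and 44.5 CPM and Fzd1 at 83.6 and 100.2.

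**Figure D5:**
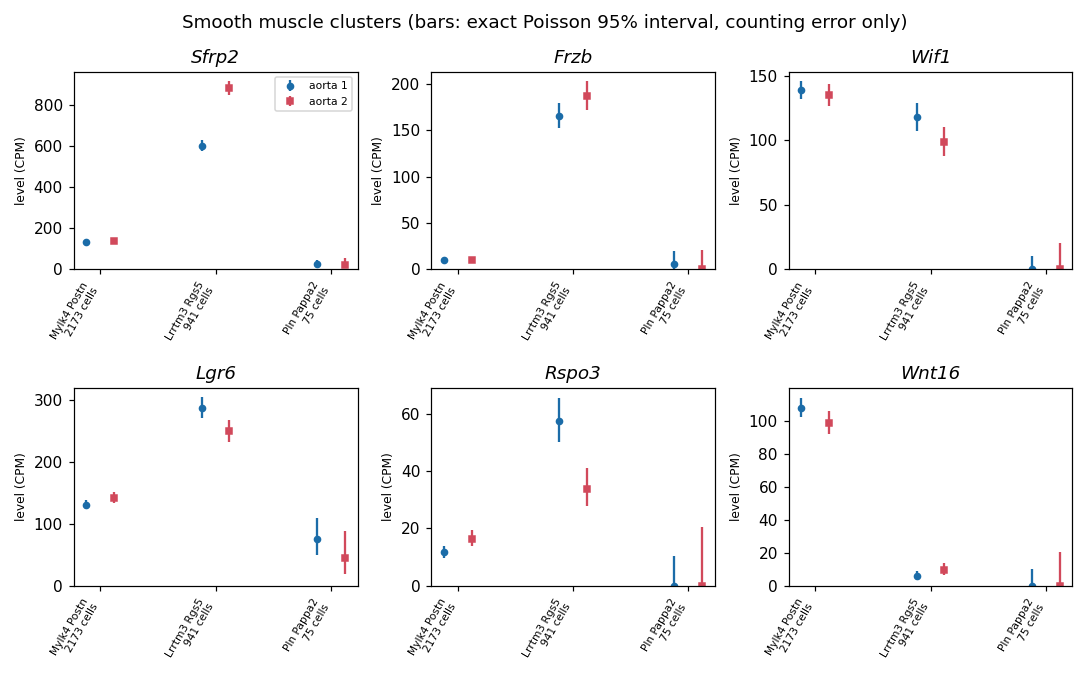
Level (CPM, linear axis from 0) of 6 members in 3 SMC clusters, named by leading genes with their cell number; circles are aorta 1, squares aorta 2, and bars exact Poisson 95% intervals. Wnt16 lies in the Mylk4 cluster, and of these clusters the Lrrtm3 cluster holds the most Sfrp2, Frzb and Rspo3.

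Endothelial cells formed clusters led by Cytl1 and Emcn (914 cells), Adra2a and Stmn2 (390), Ccl21a and Mmrn1 (122) and Gpihbp1 and Rbp7 (83). The Ccl21a cluster was lymphatic-like, with the lymphatic markers Prox1 at 403 CPM, Flt4 at 843 and Reln at 589. Sfrp1 was 2077 and 2171 CPM in the Cytl1 cluster and 716 and 1017 in the Adra2a cluster, but 12.4 and 0 in the lymphatic-like and 0 and 10.98 in the Gpihbp1 cluster. Frzb was likewise a gene of the Cytl1 cluster (135 and 172 CPM, and 16.1 and 40.1 in the Adra2a cluster). Wnt2 was 31.0 and 60.5 CPM in the lymphatic-like cluster, on 5 and 15 UMIs, and 29.5 and 0 in the Gpihbp1 cluster. Wnt9b was highest in the lymphatic-like cluster (24.8 and 16.1 CPM), on 4 UMIs in each aorta. Fzd4 was lower there (62.0 and 68.6 CPM) than in the other 3 clusters (133 to 209).

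The mesothelial cells comprised a large cluster led by Upk3b and Msln (406 cells) and a small one led by Cxcl13 (25 cells, 20 and 5 per aorta). Rspo1 was 720 and 653 CPM in the former and 165 and 71.3 in the latter. Wnt4 had the reverse distribution, with 72.0 and 104 CPM in the Upk3b cluster and 819 and 1598 in the Cxcl13 cluster. The name of that small cluster is the least firm: it held Upk3b (455 CPM) and Gpm6a (102 CPM) but little Msln (3.39 CPM), and its Dcn stood at 11380 CPM. Without it, 7 members were still higher and 14 lower in mesothelial cells than in fibroblasts. Wnt5a (170 and 164 CPM against 26.7 and 0) and Wnt2 (78.9 and 74.7 against 17.8 and 0) belonged to the Upk3b cluster. One myeloid cluster, led by Slpi and Alox15 (117 cells), also held Wnt2, at 81.1 and 66.4 CPM, and the other myeloid clusters had at most 4.75.

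Other genes of the pathway were read from a list of 49, of which 41 were tested. In SMCs over fibroblasts 5 were higher (12.2%) and 13 lower (31.7%), beside the 10.3% and 16.4% of all genes given above. Those with the highest fold in SMCs were Sost, the gene of sclerostin, an antagonist that binds Lrp5 and Lrp6, with 814 and 972 CPM in SMCs against 15.7 and 18.0 in fibroblasts (log2 fold change 5.76 ± 0.18), the planar polarity cadherin Celsr2 (3.59 ± 0.45), the feedback inhibitor Nkd1 (2.65 ± 0.14) and Dact3 (1.61 ± 0.12), whose family acts on Dishevelled. The most reduced in SMCs were Dact2 (-7.23 ± 0.43), Lrp4 (-4.52 ± 0.27), Cthrc1 (-4.10 ± 0.35) and Dact1 (-3.63 ± 0.16), with edgeR adjusted p values for these 8 of at most 2.82e-07. Dact2 was itself among the leading genes of the Pla1a cluster, although it was not used to make it.

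Endothelial cells had 6 of the 41 higher (14.6%) and 11 lower (26.8%) than fibroblasts, beside 11.5% and 14.7% of all genes. The highest folds were those of Celsr1 (5.99 ± 0.40), Celsr2 (4.52 ± 0.47), Sost (1.23 ± 0.21) and Tspan12 (1.23 ± 0.17), the tetraspanin partner of Fzd4, which stood at 41.3 and 47.5 CPM in endothelial cells and 16.8 and 16.9 in fibroblasts. Dact2 (-6.74 ± 0.60), Dact1 (-5.85 ± 0.28), Pygo1 (-5.06 ± 0.50) and Nkd2 (-4.003 ± 0.72) were the most reduced. In endothelial cells Sost stood at 0.0418 and 0.0569 of its SMC level, within the range of the 6 SMC markers (up to 0.0807 and 0.0893). In mesothelial cells over fibroblasts the list had 5 higher (12.2%, beside 10.5% of all genes) and 12 lower (29.3%, beside 14.1%), and in endothelial cells over SMCs 9 in each direction (22.0%, beside 15.7% and 14.2%). Wls, which carries Wnts to the cell surface, was present in every large type, from 29.1 and 28.0 CPM in lymphocytes to 307 and 301 in mesothelial cells.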

How the data were processed

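Thoracic aortas of 2 WT (GFPiSMC) mice were profiled with the Chromium 3′ v3.1 chemistry. The deposited values are raw UMI counts for each gene in each cell. Per the labels, Cell Ranger 4.0.0 and the mm10 build were used by the authors, with Seurat also named, and coordinates are GENCODE M21 on GRCm38. Strand use was not given in the sources used here.

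Cells were kept if they had over 200 genes, between 1000 and 25000 UMIs and under 10% mitochondrial UMIs (6744 and 4698 cells, while the labels give 6278 and 4300 after the study's filtering), and 205 and 84 doublets called with Scrublet (scanpy 1.11.5) were removed. Clustering (Leiden, resolution 1, 30 components) left out 161 genes, members and pathway genes included, and clusters were named from fixed markers. Median depth was 5671 and 5396.5 UMIs per cell.

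Counts were summed per aorta and cell type and tested in edgeR 4.0.16 (quasi-likelihood, TMM, cell type as the term, 14 sums of 7 types, Benjamini-Hochberg over 13875 genes). On simulated counts for SMCs over fibroblasts (12748 genes), 89% of changes of 1 log2 unit and 100% of changes of 2 were recovered. Recovery meant an adjusted p under 0.05 alone, so these shares do not apply to the calling rule with its fold limit. The changed genes excluded those of low expected count, and the counts had 1 fixed spread and no pairing by aorta. Only 2 aortas give the error. All types of a library come from 1 aorta, which pairs them: correlations of their deviations ran from -0.143 to 0.450, and 9 of 21 pairs exceeded 0.1. Alternatives were DESeq2 1.42.0, the block, other filters, scalings and clusterings. All 40 members with 20 or more UMIs are named; of the pathway list, the 4 highest folds in each direction among those called in SMCs or endothelial cells over fibroblasts, and Wls was chosen after its values were seen. Members and lists were chosen with earlier results of these data known. Promoters are RefSeq sequences. No protein sequence was used. The results of 1 SMC cluster and 1 unnamed cluster are not reported here. Intervals and floors (3 UMIs over the group) cover counting error only.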

Additional observations from a re-analysis of the deposited data

Results flagged for a closer look

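The 3 members restricted to SMCs also had UMIs in the 688 cells of no named type, which enter no comparison: Lgr6 had 99 UMIs, Wif1 156 and Wnt16 141. Of these, 33, 142 and 95 UMIs were in the cluster led by Cyb5r3 (520 cells, median 1555 UMIs per cell), which was unnamed for its low depth. In it Wif1 stood at 139 and 154 CPM, Wnt16 at 110 and 75.6 and Lgr6 at 38.5 and 26.1. The part of low RNA content in these values was not tested.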

How the results depend on the processing

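Of the counts of called members, that of members higher in SMCs than in fibroblasts (5) moved by more than 1.5 times: it was 8 on adjusted p alone (21.1%, under the 23.8% of all genes), 3 with DESeq2 and 3 with doublets kept, where 1144 and 1352 of all genes were called against 1431. Rspo3 and Frzb, near the fold limit, were the calls lost in the last pair. The other counts stayed within 1.5 times under 14 alternatives (3 for the F test): 16 to 20 lower in SMCs, 5 to 8 higher and 17 to 23 lower in endothelial cells than in fibroblasts, 6 to 10 and 12 to 17 in mesothelial cells, 7 to 10 and 14 to 18 in endothelial cells over SMCs, and 37 to 40 by F test. With the aorta as a replicate block the counts in SMCs over fibroblasts were 5 and 17, and the pairing changed 1 call of a member, Dkk2 in endothelial cells over fibroblasts (0.99).

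Over the 152 fold changes of members, 115 kept their direction and side of the threshold in every alternative that gave a value. Those reversed were both among cells with 5000 to 25000 UMIs: Lgr6 in endothelial cells over fibroblasts (1.70; adjusted p = 4.7e-05, against -0.9996 as reported) and Rspo1 in endothelial cells over SMCs (-0.53; adjusted p = 0.79). Under that limit Wif1 (2.64) and Wnt16 (3.79) were also called higher in endothelial cells than in fibroblasts; the cause was not tested. Of the called values with over 10 UMIs in the lower type, 16 moved by more than 1.5 times under that limit and 10 with doublets kept, such as Lgr6 (-3.29 and -3.61) and Wif1 (-3.11 and -3.90) in endothelial cells over SMCs.

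A single aorta leaves no residual degrees of freedom, so leaving out a replicate gives values without a test. Of 97 called values, 27 moved by more than 1.5 times without 1 aorta and 0 changed sign; in 14 of these the lower type had over 10 UMIs. Beside those given above, Wnt5a in endothelial cells over SMCs became -3.80 without aorta 1 (from -2.48) and over fibroblasts -8.49, Rspo1 in endothelial cells over fibroblasts -0.66 (from -1.25), Fzd3 2.44 and 2.94 in endothelial and mesothelial cells, Rspo2 in mesothelial cells 1.23, Sfrp1 in SMCs over fibroblasts -5.75 and Wif1 in endothelial cells over SMCs -6.33. Upper quartile scaling with all 7 types had no value; the settings without erythroid cells and without single clusters of doubtful name were chosen after seeing the data. Levels under 1 CPM rest on few UMIs, and so do some higher levels in small clusters. Sfrp1, for example, stood at 12.4 CPM on 2 UMIs in the lymphatic-like cluster of aorta 1. In the Gpihbp1 cluster of aorta 2 it stood at 10.98 CPM on 1 UMI.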
